A study of Mus musculus with 8 samples.

Results

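The 70 replication-dependent histone genes were followed in costal chondrocytes, the cartilage cells released from the rib cage by collagenase, of mice that lack the microRNA gene Mir324 and of wild-type mice. They were taken by gene symbol from a table of 52325 gene identifiers, as symbols of the Hist1 to Hist4 families or of the newer H1f, H2ac, H2bc, H3c and H4c families, without symbols marked as pseudogenes. The groups were 4 Mir324-null mice (miR-324-null in the study's labels) and 4 wild-type (WT) mice, each library coming from the chondrocytes of an individual mouse. The sources used here give no age, sex, strain or way of making the allele. Of the 70 genes, 7 belong to the linker histone H1 class, 20 to H2A, 18 to H2B, 12 to H3 and 13 to H4. On the GRCm38 assembly, 56 lie on chromosome 13, 10 on chromosome 3, 2 on chromosome 11, 1 on chromosome 6 and 1 on chromosome 15. GENCODE M21 annotates 68 as protein-coding, and Hist1h2aj and Hist1h2al as pseudogenes. H1f0, the chromosome 15 gene, encodes a replacement linker histone that is not tied to DNA replication and was taken in by its symbol.

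Replication-dependent histones package newly made DNA, and their genes are read mainly in S phase. H2A, H2B, H3 and H4 form the nucleosome core, and H1 binds the linker DNA where it enters and leaves the nucleosome. Their mRNAs are the only known animal mRNAs that end in a stem-loop bound by the stem-loop binding protein instead of in a poly(A) tail, although some histone genes also give polyadenylated mRNA in cells that have stopped dividing. In cartilage, proliferating chondrocytes make these mRNAs while hypertrophic chondrocytes have left the cell cycle.

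Expression was given as TPM, a level per transcript length in which each library sums to 1000000. Mir324 itself was at 0 TPM in all 8 libraries, so the table gives no check of the deletion. The 13 chondrocyte markers summed to between 51057 and 65471 TPM in Mir324-null libraries and between 52532 and 64459 TPM in WT libraries. Mir324-null replicate 3 stood apart, with a mean Spearman correlation of 0.864 to the other libraries and 13229 genes at 1 TPM or more, against 13683 to 14477 in the other 7. TPM keeps no read depth, so counting error is not known.

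The 16-base stem-loop was found at or after the stop codon in 46 of the 68 protein-coding histone genes. It was matched as GGNNCTT, then NTN, then AGNNCC, where N is any base, on the transcript strand. Searched over whole protein-coding transcripts, it was found in 46 of the 68 and in 90 of 21833 other protein-coding genes (0.412%). Of the 8 forms found, the 5 carried by H1 genes or by the H4 genes Hist1h4b, Hist1h4c and Hist1h4i are shown, because the arms differ between H4 and the other classes, with the 6-base arms of the stem in capitals and the 4-base loop in lower case (GENCODE M21, GRCm38, transcript strand, chromosome 13).

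Hist1h1c, Hist1h1d and Hist1h1e: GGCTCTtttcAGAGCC
Hist1h1t: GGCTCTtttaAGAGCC
Hist1h4c: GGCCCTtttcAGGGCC
Hist1h4i: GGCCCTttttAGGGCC
Hist1h4b: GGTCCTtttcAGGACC

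The form of Hist1h1c was shared by 3 H1, 10 H2A, 8 H2B and 5 H3 genes, and no H4 gene had it. The first arm read GGCTCT in every gene of the other classes that had a stem-loop and in none of the 12 H4 genes, where it read GGCCCT in 10 and GGTCCT in 2. By class the stem-loop was found in 4 H1, 11 H2A, 10 H2B, 9 H3 and 12 H4 genes. The annotated transcript ran 100 bases or more past it in 23 genes and ended within 100 bases of it in 23, and none was found in 24. Many of these 24, such as Hist1h1b, Hist1h3i and Hist1h4k, have annotated transcripts that end at the stop codon. No stem-loop could be found in those, so the search does not show that the genes lack it. The pseudogenes Hist1h2aj and Hist1h2al were not searched. The median of the genes' mean levels was 2.17 TPM in the first set, 2.59 TPM in the second and 1.27 TPM in the third. The summed mean levels were 337, 130 and 486 TPM in the same order. The third set thus had the lowest median but the largest sum, with Hist1h2bc at 267 TPM and the replacement histone H1f0 at 102 TPM. Hist1h2bc has 1 annotated transcript, which is spliced, and only that form was searched.

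The H1 promoters are shown because the H1 genes had the lowest values relative to WT of the 5 classes. RefSeq (GRCm38.p6) gave a promoter for 63 of the 70 genes, running from 250 bases before to 50 after the annotated start. The stretches below run from base -130 to base -11, 5′ to 3′ on the gene's strand. Capitals mark the H1 box AAACACA, the CCAAT box, the TATA box TATAAA and the octamer ATTTGCAT, each searched on both strands, so that a reverse match reads as its reverse complement. Hist1h1c lies on the plus strand (chr13:23738677-23738796), Hist1h1e on the minus strand (chr13:23622569-23622688), Hist1h1d on the plus strand (chr13:23554902-23555021) and Hist1h1b on the minus strand (chr13:21780636-21780755). Hist1h1a (chr13:23763538-23763657), Hist1h1t (chr13:23695681-23695800), H1f0 (chr15:79028082-79028201) and the H2B gene Hist1h2bg (chr13:23571270-23571389) lie on the plus strand.

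Hist1h1c: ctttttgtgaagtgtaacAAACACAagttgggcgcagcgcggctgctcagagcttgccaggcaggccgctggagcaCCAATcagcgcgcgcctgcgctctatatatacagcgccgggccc
Hist1h1e: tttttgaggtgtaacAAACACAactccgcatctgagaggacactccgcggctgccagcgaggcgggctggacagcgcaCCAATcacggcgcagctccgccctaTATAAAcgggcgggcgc
Hist1h1d: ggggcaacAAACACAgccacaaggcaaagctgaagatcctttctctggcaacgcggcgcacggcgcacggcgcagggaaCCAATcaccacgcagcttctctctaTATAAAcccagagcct
Hist1h1b: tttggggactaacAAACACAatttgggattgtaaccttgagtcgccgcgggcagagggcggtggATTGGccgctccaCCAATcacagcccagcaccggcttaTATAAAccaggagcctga
Hist1h1a: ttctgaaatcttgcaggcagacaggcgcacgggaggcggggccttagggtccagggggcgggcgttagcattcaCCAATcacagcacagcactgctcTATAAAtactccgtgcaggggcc
Hist1h1t: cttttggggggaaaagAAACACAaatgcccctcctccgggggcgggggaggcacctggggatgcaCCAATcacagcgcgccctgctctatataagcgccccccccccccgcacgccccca
H1f0: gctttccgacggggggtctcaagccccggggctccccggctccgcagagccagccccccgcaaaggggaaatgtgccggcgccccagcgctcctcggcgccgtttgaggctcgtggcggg
Hist1h2bg: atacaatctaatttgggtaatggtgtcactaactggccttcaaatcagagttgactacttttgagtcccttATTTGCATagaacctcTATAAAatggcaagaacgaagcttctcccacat

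The H1 box was present in 5 of 7 H1 promoters (71.4%), against 7.14% of 27025 RefSeq promoters, and began between bases -122 and -112. A CCAAT box, on either strand, was present in 6 of 7 H1 promoters and in every H2A, H2B and H3 promoter with a sequence. It was present in 3 of 12 H4 promoters (25%) and in 37.9% of all promoters. In Hist2h3c2 and Hist2h3c1 its only match lay after the annotated start, at bases 14 and 29. The letters TATAAA were present, on either strand and anywhere in the promoter, in 55.6% of the 63 histone promoters, against 14.2% of all promoters. The matches reached from base -250 in Hist1h4f to base 41 in Hist1h4a, and some lay on the reverse strand, as in Hist1h2bk. The octamer was present in 6 of 16 H2B promoters (37.5%) and 7 of 18 H2A promoters (38.9%), against 1.75% of all. Matches of this kind are letters in a window and were not tested for binding. Several H2A and H2B genes are divergent neighbours whose windows share bases.

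**Figure D1:**
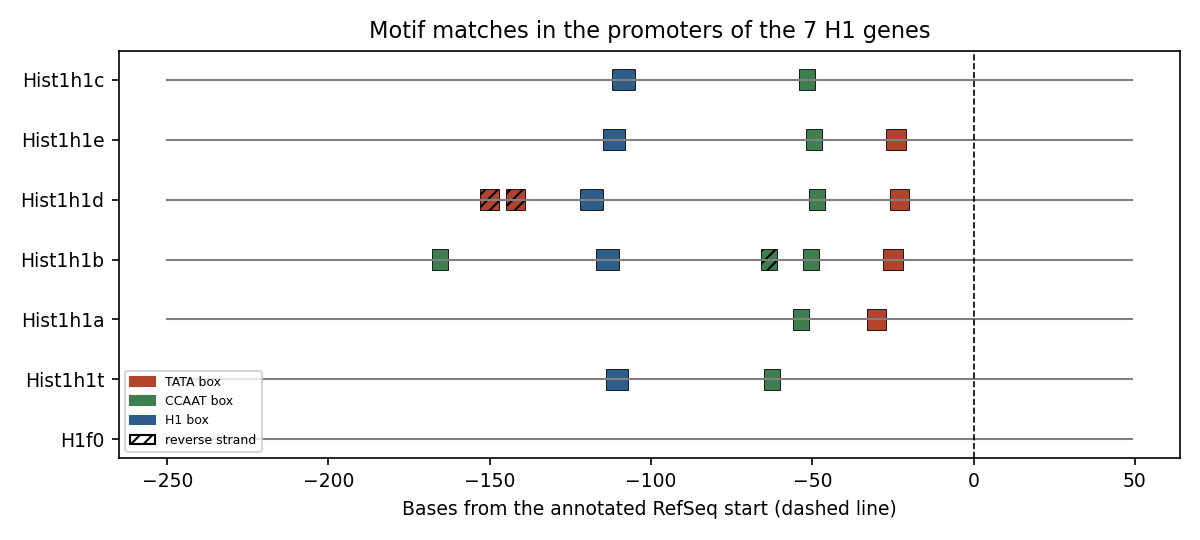
Motif matches in the 7 H1 promoters, with distance from the annotated RefSeq start in bases on the horizontal axis and a line for each gene. Blue boxes are H1 boxes, green CCAAT boxes, red TATA boxes, and hatching marks the reverse strand. The H1 box lies between bases -122 and -112 in 5 genes and none was found in Hist1h1a or H1f0.

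The transcripts were unevenly spread over the family. Means over all 8 libraries were 100 TPM or more for 3 genes, Hist1h2bc, Hist1h1c and H1f0, and 10 TPM or more for 13 genes. They were below 1 TPM for 26 genes, and Hist1h3h was at 0 in all 8 libraries. Hist1h2bc and Hist1h1c together held 52.1% of the summed mean TPM of the 70 genes. The family held 0.0713% to 0.0854% of all TPM in Mir324-null libraries and 0.0824% to 0.143% in WT libraries. The testis genes Hist1h2aa and Hist1h2ba, which encode testis forms of H2A and H2B, were above 0 in 1 library each, at 0.233 TPM in Mir324-null replicate 1 and 0.299 TPM in WT replicate 1.

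The question of the comparison was whether histone mRNA differed between Mir324-null and WT chondrocytes. Of the 70 genes, 43 reached 1 TPM in at least 4 libraries and were tested with limma on log2(TPM + 1), among 13910 genes. The other 27 did not pass this filter. The 43 include the pseudogene Hist1h2al. None of the 43 passed an adjusted p of 0.05 (smallest adjusted p = 0.981), where 0.0216% of the 13910 genes did. At an unadjusted p under 0.05, 7 were lower in Mir324-null libraries, against 2.37% of all genes tested, and 0 were higher, against 1.78%. These 7 were Hist1h1e, Hist1h1b, Hist1h1c, Hist1h1d, Hist1h2bg, Hist1h4c and Hist3h2a, so 4 of the 7 belong to the H1 class. The log2 difference, Mir324-null minus WT, was negative in 37 of the 43 and had a median of -0.39, where it was negative in 60.1% of all genes, with a median of -0.05. In 2 genes, Hist1h1e and Hist3h2a, every Mir324-null value was below every WT value, which held for 1.70% of all genes. The reverse held for none of them and for 0.978% of all genes.

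The 7 became 3 without WT replicate 1, 3 without WT replicate 4, 15 without WT replicate 2 and 5 without Mir324-null replicate 3. Of the original 7, Hist1h1e, Hist1h1b and Hist1h4c remained without WT replicate 1, Hist1h1e, Hist1h1b and Hist3h2a without WT replicate 4, and all 7 without WT replicate 2, with 8 further genes. Without Mir324-null replicate 3 only Hist1h1e and Hist1h1b of the 7 remained, and the other 3 genes were Hist1h2ae, Hist1h3i and Hist1h4a. Hist1h1e and Hist1h1b were in the count under each of the 8 runs that left out 1 library. The median of -0.39 became -0.17 without WT replicate 1 and -0.35 without Mir324-null replicate 3. In these bulk samples fewer cells that make histone mRNA and less of it per cell cannot be told apart.

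**Figure D2:**
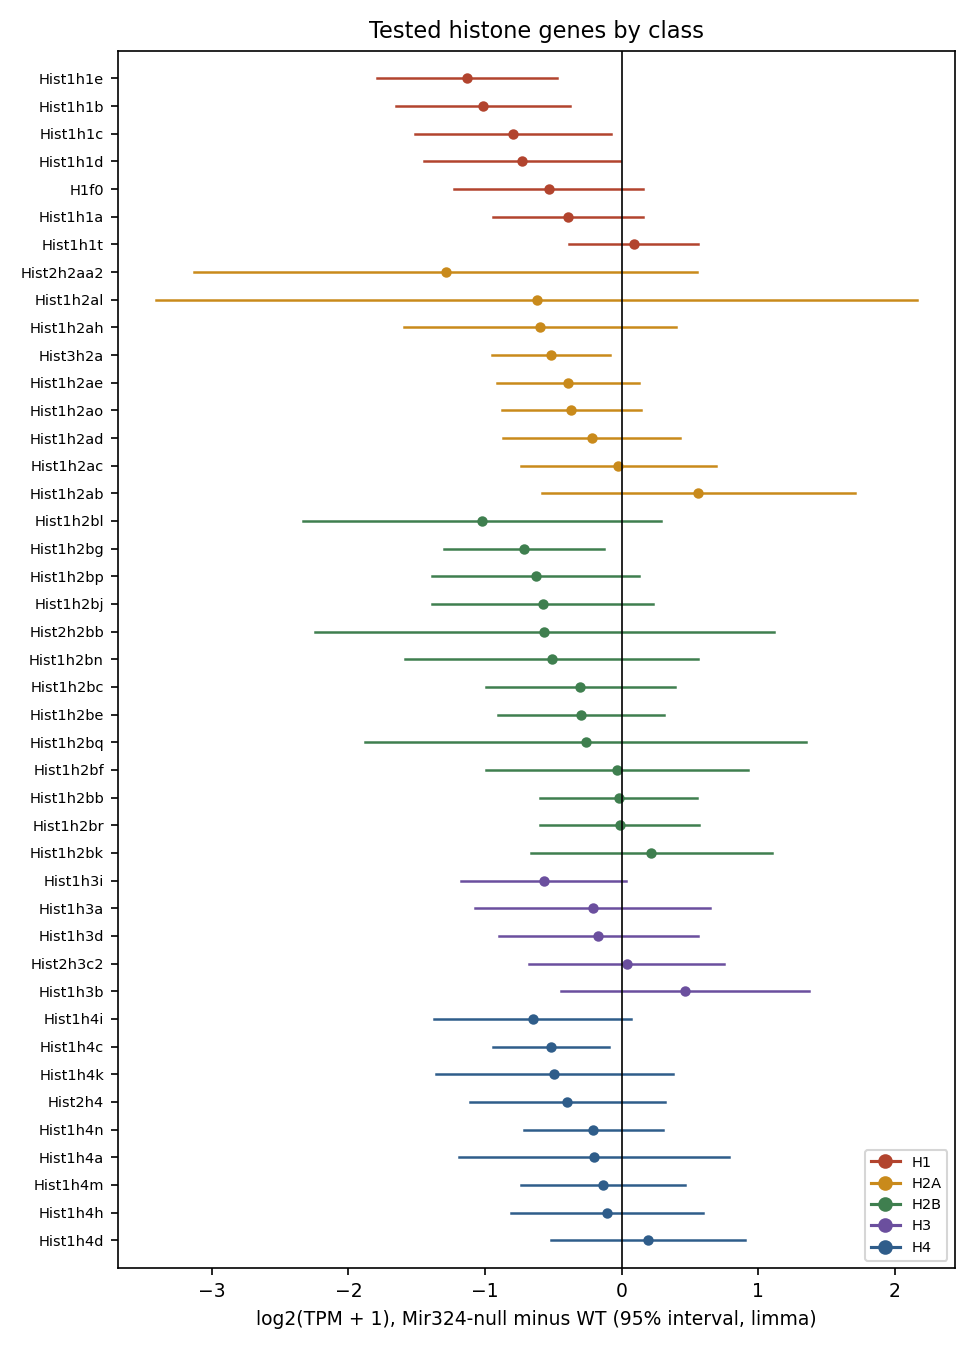
Log2(TPM + 1) differences, Mir324-null minus WT, of the 43 tested genes, with 95% limma intervals; each row is a gene and colours give the histone class. Points left of the line at 0 are lower in Mir324-null libraries. The line at 0 is crossed by every interval except those of Hist1h1e, Hist1h1b, Hist1h1c, Hist1h1d, Hist3h2a, Hist1h2bg and Hist1h4c.

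The H1 class had a median log2 difference of -0.73 over its 7 tested genes, 6 of them negative. Hist1h1e, a somatic linker histone, had 10.1, 8.23, 4.91 and 8.52 TPM in Mir324-null replicates 1 to 4, against 29.0, 13.6, 13.8 and 19.6 TPM in WT replicates 1 to 4. The groups did not overlap, and WT replicate 1 was the highest of the 8. Its log2 difference was -1.13 (95% interval -1.79 to -0.47, limma adjusted p = 0.981), and -0.95 without Mir324-null replicate 3. Part of Hist1h1e overlaps Hist1h2be, and 65.3% of its 31-base words occur in no other transcript.

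Hist1h1c is the most abundant somatic linker histone gene here. It had 246, 132, 110 and 186 TPM in Mir324-null libraries, against 370, 198, 218 and 377 TPM in WT libraries. Mir324-null replicate 1 was above WT replicates 2 and 3, so the groups overlapped, and WT replicates 1 and 4 were the highest. The log2 difference was -0.79 (95% interval -1.51 to -0.08), and -0.61 without Mir324-null replicate 3. Hist1h1b, a linker histone of dividing cells, had 2.92, 1.29, 0.606 and 1.59 TPM in Mir324-null libraries, against 5.13, 2.83, 4.03 and 4.31 TPM in WT libraries. Only Mir324-null replicate 1 reached the lowest WT value, and the log2 difference was -1.02 (95% interval -1.65 to -0.38), and -0.81 without Mir324-null replicate 3.

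Hist1h1d and Hist1h1a are outside the rule for named genes and complete the class; they were chosen after their values were seen. Hist1h1d had 1.77, 1.16, 0.788 and 1.48 TPM in Mir324-null libraries, against 5.36, 1.203, 2.35 and 3.28 TPM in WT libraries, and WT replicate 2 lay within the Mir324-null range. Hist1h1a had a log2 difference of -0.39, with 1.23 to 1.80 TPM in Mir324-null libraries and 1.29 to 4.09 TPM in WT libraries. Hist1h1t, a linker histone of the testis, lay at 0.316 to 1.52 TPM in Mir324-null libraries and 0.635 to 1.01 TPM in WT libraries, with a log2 difference of 0.09. The replacement linker histone H1f0 had 108, 67.6, 59.4 and 90.8 TPM in Mir324-null libraries, against 153, 68.2, 107 and 158 TPM in WT libraries. Its groups overlapped, and its log2 difference of -0.53 had an interval that included 0 (-1.23 to 0.16).

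**Figure D3:**
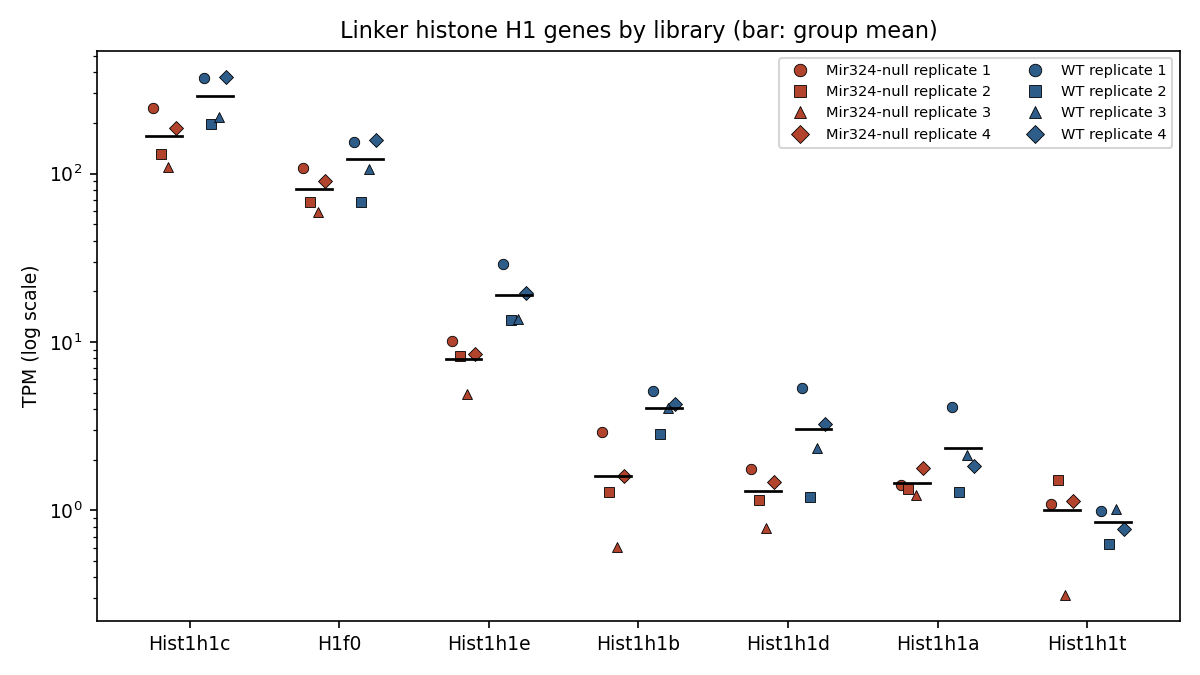
TPM on a log axis of the 7 H1 genes in each library, Mir324-null in red and WT in blue, with a symbol for each replicate number and a bar at the group mean. Only Hist1h1e has all 4 Mir324-null values below the lowest WT value of 13.6 TPM.

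Summed by class, H1 came to 372, 213, 177 and 291 TPM in Mir324-null libraries, against 568, 286, 348 and 565 TPM in WT libraries. The means were 263 ± 86.6 TPM in Mir324-null libraries and 442 ± 146 TPM in WT libraries (SD, n = 4 each). The log2 ratio of these means, Mir324-null over WT, was -0.75, and -0.60 without Mir324-null replicate 3. Without its most abundant genes, Hist1h1c and H1f0, the H1 sum ran from 7.85 to 17.3 TPM in Mir324-null libraries and from 19.5 to 44.6 TPM in WT libraries, with no overlap. This trimmed sum was made after the values were seen and was not tested. Hist1h1e made up 13.5 of its mean of 21.3 TPM over all 8 libraries. Other trimmed sums overlapped between the groups. With only H1f0 left out, the H1 sum ran from 118 to 263 TPM in Mir324-null libraries and from 218 to 415 TPM in WT libraries. The H2B sum without Hist1h2bc ran from 73.5 to 142 TPM in Mir324-null libraries and from 76.6 to 203 TPM in WT libraries. H1 took 21.015% to 43.5% of the family's TPM in Mir324-null libraries and 34.7% to 45.8% in WT libraries.

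The H2B sum was 347 ± 75.2 TPM in Mir324-null libraries and 424 ± 81.5 TPM in WT libraries (SD, n = 4 each). The H2A sum was 96.7 ± 21.4 TPM in Mir324-null libraries and 118 ± 31.3 TPM in WT libraries, and the H4 sum was 74.3 ± 9.96 TPM in Mir324-null libraries and 99.6 ± 35.1 TPM in WT libraries. The H3 sum was 21.7 ± 9.29 TPM in Mir324-null libraries and 20.1 ± 2.96 TPM in WT libraries. Leaving out Mir324-null replicate 3 turned the log2 ratio of no class sum, and moved that of H2B to -0.44, against -0.29 with all libraries. Without WT replicate 1 the ratios were -0.60 for H1, -0.12 for H2A, -0.16 for H2B and -0.18 for H4. With all libraries these were -0.75, -0.29, -0.29 and -0.42. The H3 ratio was 0.12 with all libraries and ran from -0.16 to 0.31 leaving out 1 library, so its sign changed. The groups overlapped in all 5 class sums. WT replicate 1 was the highest library for the sums of H1, H2A, H2B and H4, and Mir324-null replicate 2 was the highest for H3, at 33.0 TPM.

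**Figure D4:**
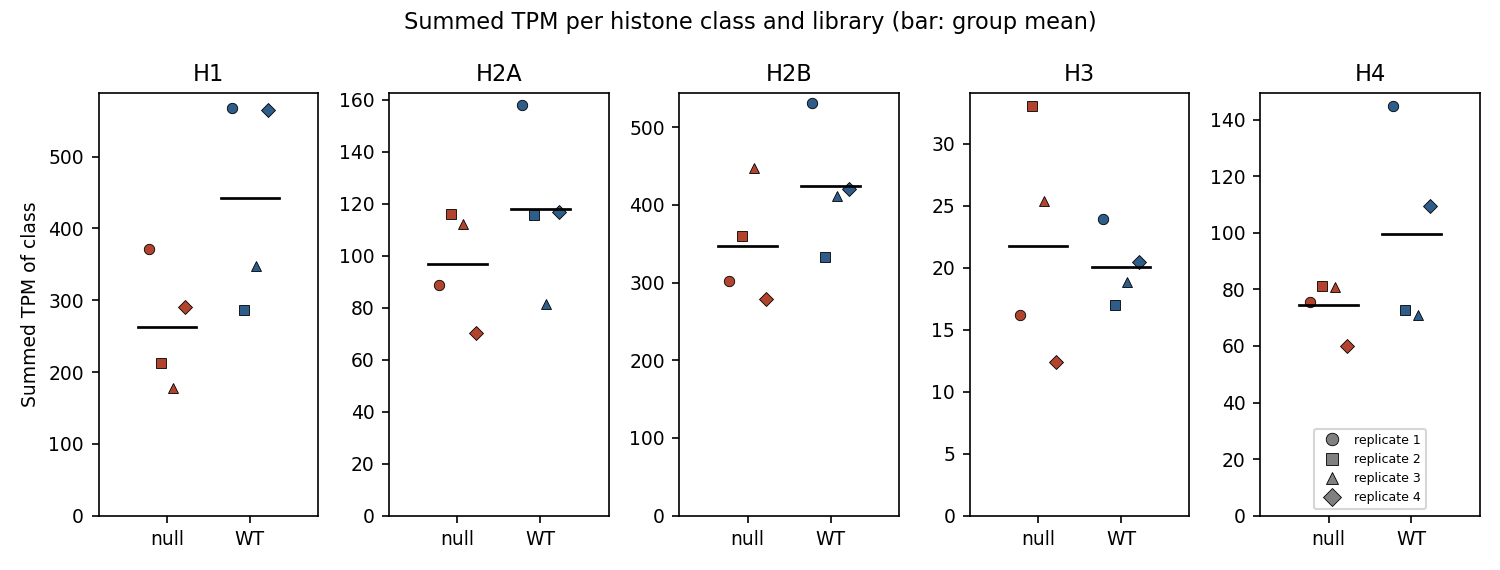
Summed TPM of the genes of each histone class, 1 panel per class, each with its own axis from 0; symbols are replicate numbers, red is Mir324-null, blue is WT and bars are group means. WT replicates 1 and 4 are highest in H1, at 568 and 565 TPM, and all classes overlap between the groups.

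Among the core histones, H2A had a median log2 difference of -0.39 over 9 of 20 genes tested, 8 of them negative. The tested H2A genes include the pseudogene Hist1h2al, at 0 to 16.9 TPM in Mir324-null libraries and 0 to 26.9 TPM in WT libraries. Its log2 difference was -0.62, and 0.35 without WT replicate 1. Hist3h2a, an H2A gene on chromosome 11, had 5.25, 6.14, 4.04 and 4.16 TPM in Mir324-null libraries, against 10.03, 6.36, 6.61 and 6.95 TPM in WT libraries. No Mir324-null value reached a WT value, although Mir324-null replicate 2 and WT replicate 2 lay close. The log2 difference was -0.52 (95% interval -0.95 to -0.09). It was -0.45 without Mir324-null replicate 3 and -0.39 without WT replicate 1, and in both cases Hist3h2a no longer had an unadjusted p under 0.05. Hist1h2ac had a log2 difference of -0.02, with 9.95 to 26.4 TPM in Mir324-null libraries and 11.3 to 17.8 TPM in WT libraries. Hist1h2ab had the largest positive difference of the family, 0.56 with an interval of -0.59 to 1.71, with Mir324-null replicate 2 far above the others. Hist1h2ao and Hist1h2ae had log2 differences of -0.37 and -0.39 with intervals that included 0.

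H2B had a median of -0.30 over 13 of 18 genes tested, 12 of them negative. Hist1h2bc, the most abundant gene of the family, had 228, 246, 361 and 137 TPM in Mir324-null libraries, against 387, 256, 208 and 312 TPM in WT libraries. The groups overlapped, with the highest Mir324-null value in replicate 3, and the log2 difference was -0.30 (95% interval -0.995 to 0.39). Hist1h2bg, shown above with a TATA box and an octamer, had 6.24, 10.2, 5.68 and 7.14 TPM in Mir324-null libraries, against 15.5, 10.7, 8.35 and 16.8 TPM in WT libraries. Mir324-null replicate 2 lay above WT replicate 3, and the log2 difference was -0.72 (95% interval -1.30 to -0.13). It was -0.62 without Mir324-null replicate 3 and -0.61 without WT replicate 1, and in both cases Hist1h2bg no longer had an unadjusted p under 0.05. Hist1h2be, Hist1h2bp and Hist1h2bk had log2 differences of -0.30, -0.63 and 0.22, with intervals that included 0.

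H3 had a median of -0.17 over 5 of 12 genes tested, 3 of them negative. Hist1h3d, the highest H3 gene, had 5.92, 11.4, 7.81 and 3.24 TPM in Mir324-null libraries, against 9.95, 6.35, 7.03 and 6.99 TPM in WT libraries. The Mir324-null libraries held both the highest and the lowest value, and the log2 difference was -0.17 (95% interval -0.90 to 0.56). Hist1h3i had a log2 difference of -0.57 and Hist1h3b of 0.46, Hist1h3a of -0.21 and Hist2h3c2 of 0.04, each with an interval that included 0. The 12 H3 genes encode 2 different proteins, 1 from 8 genes and 1 from 4, by translation of the annotated coding sequences.

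H4 had a median of -0.21 over 9 of 13 genes tested, 8 of them negative, and all 13 encode 1 protein of 103 residues. Hist1h4i had 17.7, 14.3, 16.9 and 11.2 TPM in Mir324-null libraries, against 39.8, 15.1, 16.9 and 31.2 TPM in WT libraries. WT replicates 1 and 4 stood above all other libraries and WT replicates 2 and 3 lay within the Mir324-null range; the log2 difference was -0.65 (95% interval -1.37 to 0.07). Hist1h4c had 2.21, 2.59, 1.9997 and 3.37 TPM in Mir324-null libraries, against 3.33, 3.51, 4.004 and 5.48 TPM in WT libraries. The overlap was 1 pair, Mir324-null replicate 4 above WT replicate 1, and the log2 difference was -0.52 (95% interval -0.94 to -0.09). Without Mir324-null replicate 3 it was -0.44 and Hist1h4c no longer had an unadjusted p under 0.05. Hist1h4k, Hist1h4n, Hist1h4m and Hist1h4d had log2 differences of -0.49, -0.21, -0.13 and 0.19, with intervals that included 0.

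Many of these genes share most of their sequence. The median share of 31-base words found in no other GENCODE M21 transcript was 96.5% in H1 genes, against 19.15% in H2A, 42.6% in H2B, 36.95% in H3 and 52.1% in H4 genes, and it was below 50% in 42 of the 70. The H1 genes, all 7 with different proteins, were the class with the highest share. Hist2h2aa1 and Hist2h2aa2 encode the same protein, and their levels were placed on different copies in different libraries. Hist2h2aa1 was at 59.9 TPM in Mir324-null replicate 3 and at 0 in the other 7 libraries. Hist2h2aa2 was at 3.19 TPM in Mir324-null replicate 3, against 44.0 to 80.6 TPM in the other 7. Summed, the pair had 58.4, 54.1, 63.1 and 44.1 TPM in Mir324-null libraries, against 80.6, 77.0, 44.0 and 76.2 TPM in WT libraries. The log2 difference was -1.29 for Hist2h2aa2 alone and -0.31 for the sum, with intervals that included 0 in both. Another annotated gene, Gm20634, holds 100% of the 31-base words of Hist2h2aa2 and 89.7% of those of Hist2h2aa1. It was not part of the sum.

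Hist1h2bq and Hist1h2br also encode the same protein. Hist1h2bq had 94.6 TPM in Mir324-null replicate 4 and 123 TPM in WT replicate 3, against 15.8 to 31.4 TPM in the other 6 libraries. Hist1h2br had 16.3 TPM in that Mir324-null library and 19.4 TPM in that WT library, within its range of 15.4 to 35.5 TPM in Mir324-null libraries and 18.1 to 23.5 TPM in WT libraries. Their summed log2 difference was -0.14. Near-identical copies summed in this way left 0 histone genes past an adjusted p of 0.05.

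**Figure D5:**
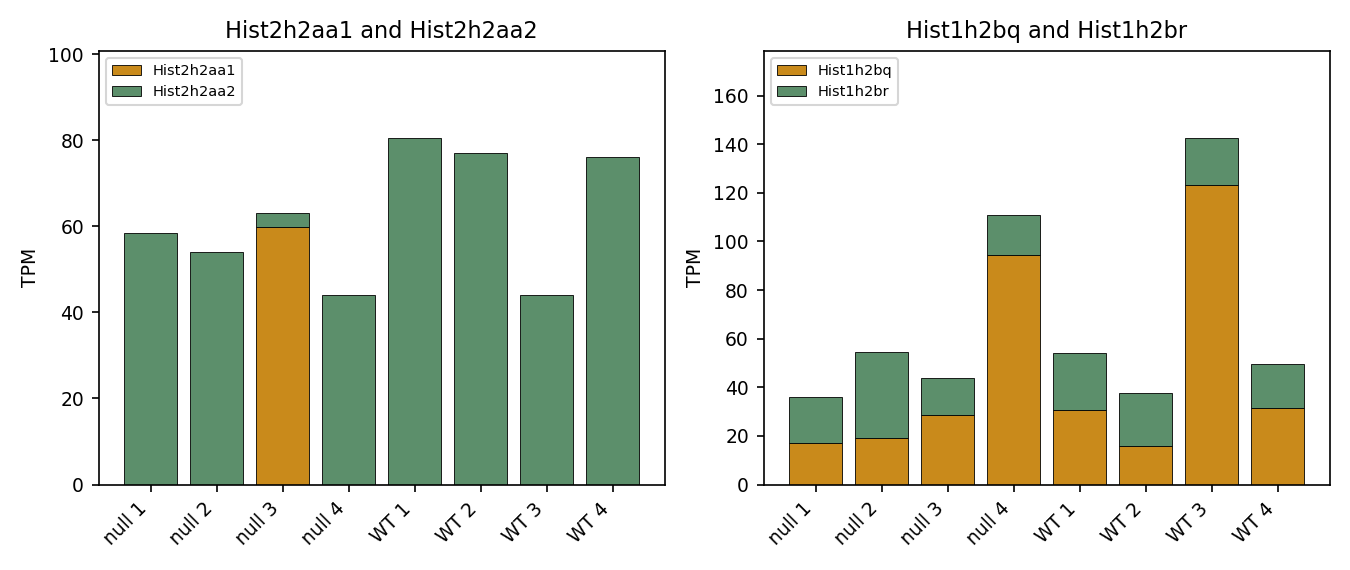
Stacked TPM of 2 pairs of near-identical genes in each library, Mir324-null libraries at the left and WT at the right. Mir324-null replicate 3 has 59.9 TPM on Hist2h2aa1, where the other 7 have none, and Hist1h2bq is highest in Mir324-null replicate 4 and WT replicate 3.

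Genes that act with these mRNAs were read from lists, and none of their members passed an adjusted p of 0.05. Over all genes tested, 60.1% were negative, with a median of -0.05. Every Mir324-null value was below every WT value in 1.70% of all genes tested. Of 15 tested genes that process histone mRNA, 9 were negative, with a median of -0.14. Slbp, which binds the stem-loop, had a log2 difference of 0.04, with 65.6, 82.4, 72.5 and 70.4 TPM in Mir324-null libraries, against 74.3, 84.2, 72.1 and 53.9 TPM in WT libraries. Npat, the coactivator of replication-dependent histone genes, was chosen for its role after its values were seen and had a difference of -0.14. Casp8ap2, a partner of Npat, had -0.38, Ints3, an Integrator subunit, -0.36 and Srrt, which acts with the nuclear cap-binding complex, -0.17, each with an interval that included 0. Cstf2, a 3′ cleavage factor, had 8.41, 7.28, 3.61 and 7.81 TPM in Mir324-null libraries, against 9.98, 11.8, 9.73 and 9.83 TPM in WT libraries, with no overlap and a difference of -0.59.

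Of 22 tested histone chaperones, 16 were negative, with a median of -0.07, where 60.1% of all genes tested were negative. Rbbp4, a subunit of the CAF-1 chaperone, had a difference of -0.255. Its groups did not overlap, as in 1.70% of all genes in that direction. The other chaperones taken by the rule for named genes were Cabin1 at -0.32, Daxx at 0.24, Nap1l4 at 0.17 and Ipo4 at 0.12. Their intervals included 0. Of 11 tested replacement histones, which are made outside S phase, 7 were negative, with a median of -0.07, and H3f3b, which encodes the replacement histone H3.3, had -0.29. H3f3a, which encodes the same protein, had -0.12, and H2afz, which encodes H2A.Z, had 0.23. H1foo, with means of 1.10 TPM in Mir324-null and 0.82 TPM in WT libraries, also had 0.23. H1fnt, a testis linker histone, was at 0 in all 8 libraries. Of 32 S-phase genes, 16 were negative and 16 positive, with a median of 0.00. Mcm5 had a difference of 0.32 and Cdc6 of -0.25, with intervals that included 0. Pcna, the sliding clamp of DNA replication, had 150, 146, 170 and 164 TPM in Mir324-null libraries, against 182, 184, 142 and 124 TPM in WT libraries, with a difference of 0.01. Of 24 tested genes of G2 and mitosis, 18 were negative, with a median of -0.16, against 60.1% negative over all genes tested. Bub1, a spindle checkpoint kinase, had 1.13, 1.72, 1.31 and 1.54 TPM in Mir324-null libraries, against 3.68, 1.58, 5.25 and 2.43 TPM in WT libraries, with a difference of -0.73 and overlap in WT replicate 2.

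The S-phase sum was 349, 312, 341 and 353 TPM in Mir324-null libraries, against 400, 338, 346 and 292 TPM in WT libraries. It was highest in WT replicate 1 and lowest in WT replicate 4, the libraries with the highest H1 sums. Pcna alone made up a large part of this sum. The sum of the G2 and mitosis genes was 149, 99.7, 127 and 147 TPM in Mir324-null libraries. In WT libraries it was 178, 82.9, 175 and 157 TPM, lowest in replicate 2, which also had the lowest H1 sum in WT. A link between these sums and H1 was not tested.

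Markers of other cells were read over the same libraries. Over all genes tested, 60.1% were negative, and every Mir324-null value was above every WT value in 0.978%. All 9 tested endothelial markers were positive, with a median of 0.77 and a sum of 45.02 to 68.04 TPM in Mir324-null libraries and 14.0 to 58.7 TPM in WT libraries. Vwf, the endothelial von Willebrand factor gene, had 1.69, 1.38, 1.93 and 2.89 TPM in Mir324-null libraries, against 0.434, 1.12, 0.763 and 0.484 TPM in WT libraries, with no overlap. All 5 tested erythroid markers were positive, with a median of 0.43 and a sum of 281 to 1039 TPM in Mir324-null libraries and 111 to 1083 TPM in WT libraries. Fibroblast and perichondrial markers had a median of 0.05 over 10 tested and a sum of 1799 to 3501 TPM in Mir324-null libraries and 1696 to 4808 TPM in WT libraries. The 13 chondrocyte markers had a median of -0.07. Of the 10 lymphocyte markers none was tested, and they summed to 1.68 to 4.40 TPM in Mir324-null libraries and 1.251 to 1.53 TPM in WT libraries. The tested neutrophil progenitor markers, 2 of 10, had a median of 0.23 and a sum of 3.43 to 7.27 TPM in Mir324-null libraries and 1.42 to 3.89 TPM in WT libraries. The 1 tested macrophage marker of 10 had a difference of 0.06 and the list a sum of 15.4 to 28.5 TPM in Mir324-null libraries and 16.9 to 24.1 TPM in WT libraries. Of 8 tested RNAs that lack a poly(A) tail, 7 were positive, with a median of 0.50 and a sum of 623 to 1056 TPM in Mir324-null libraries and 501 to 1034 TPM in WT libraries. In the neutrophil list Ctsg and among these RNAs Rnu7 were at 0 in all 8 libraries. The part of these cells and of RNA selection in the histone values was not tested.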

How the data were processed

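Gene-level values of costal chondrocyte RNA from 4 Mir324-null and 4 WT mice came from 1 table. The deposited values are TPM, called length-scaled by the authors, 1 column per library. The table has 52865 rows, and 273 identifiers repeated on 813 rows with identical values were counted once, after which each column summed to 1000000. The submitters' processing notes name kallisto, DESeq2 and GRCh38, a human build, while the identifiers are mouse genes, so the transcriptome used by the authors is not known, and the selection of RNA and the strand setting are unknown. TPM is compositional, so a few abundant genes move all others, and it records no depth. Reads of near-identical copies can be split between them or placed on either.

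The design assumed counts; the table held TPM, so limma 3.58.1 (R 4.3.3) was run on log2(TPM + 1) with a genotype term and a trended variance, and p-values were adjusted by Benjamini-Hochberg, over genes with 1 TPM or more in 4 or more libraries. A difference on this scale understates that of low genes. The 70 genes, the 13 companion lists and the motifs were chosen with earlier results of these data known. Named genes follow a rule. Each class gives the 4 tested genes with the highest mean TPM and the 2 with the smallest p-values in each direction. The testis genes and H1f0 are also named. Each list gives the 3 genes with the smallest p-values and the 2 with the highest means, but not all of these list genes are described. Sequences come from RefSeq (GRCm38.p6) promoters and from GENCODE M21 (GRCm38) transcripts, in which 52220 of 52325 identifiers and all 70 members were found. Class sums carry no test. Alternatives were another scaling and pseudocount, other filters, a replicate block, array weights, protein-coding genes, summed copies and leaving out each library. In simulated data on 13910 genes, 1.49% of 1.5-fold, 37.3% of 2-fold and 90.9% of 4-fold changes were recovered, for Mir324-null against WT. The changes were added on the log2(TPM + 1) scale to 200 genes with a mean above 2 on that scale. These rates do not cover lower genes, such as Hist1h1b.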

Additional observations from a re-analysis of the deposited data

Results flagged for a closer look

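Of 68 groups of 4 libraries checked, 10 had a library far from the other 3. Chance flags about 1 in 20 groups of independent, normally distributed values. The groups here share libraries, and near-identical copies can share reads, so that rate need not hold. In the Mir324-null group, replicate 2 was far above the others for Hist1h2ab (8.37 TPM, against 1.17 to 1.78 in the other 3), Hist1h2be (14.2 TPM, against 8.84 to 9.43), Hist2h3c2 (3.81 TPM, against 0.827 to 1.27) and Hist1h4d (11.1 TPM, against 3.55 to 4.60). Hist1h2bq was far above the others at 94.6 TPM in Mir324-null replicate 4 and at 123 TPM in WT replicate 3. In the WT group, Hist3h2a was high at 10.03 TPM in replicate 1, Hist2h2aa2 low at 44.0 TPM in replicate 3, Hist1h2ae low at 0.585 TPM in replicate 2 and Hist1h3b low at 0.974 TPM in replicate 4.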

How the results depend on the processing

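No setting brought a histone gene past an adjusted p of 0.05. The number of all genes passing was 5 with a pseudocount of 0.1, 0 without a filter, 0 with a mean TPM of at least 1, 1 with protein-coding genes only, and 2 to 7 leaving out 1 library. Whether the replicate numbers pair the samples is not known, since the labels do not say what they mean. Same-numbered deviations correlated at -0.04, 0.11, -0.05 and 0.11. The libraries numbered 2 and those numbered 4 correlated best with their own number in both directions, and those numbered 1 and 3 did not. With the replicate block 0 of all genes passed and 9 histone genes were lower at an unadjusted p under 0.05. Leaving out 1 library, that count ran from 3 to 15. The H3 median was 0.0371 with a mean TPM of at least 1 and ran from -0.28 to 0.0785 leaving out 1 library; the medians of the other classes stayed negative in those runs (H1 -0.96 to -0.48).

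Some single-gene differences changed sign. With median-of-ratios scaling Hist1h2ac was at 0.0448 and Hist1h2br at 0.0528, with a pseudocount of 0.1 Hist2h3c2 was at -0.0108, and with array weights Hist1h3b was at -0.0366, Hist1h3a at 0.18 and Hist2h3c2 at -0.11. Leaving out 1 library gave -0.30 to 0.14 for Hist1h2ac, -0.79 to 0.30 for Hist1h2bq, -0.27 to 0.11 for Hist1h2br, -0.0338 to 0.28 for Hist1h1t, -0.0486 to 0.51 for Hist1h2bk, -0.49 to 0.0538 for Hist1h3a, -0.41 to 0.11 for Hist1h3d, -0.28 to 0.18 for Hist2h3c2, -0.11 to 0.36 for Hist1h4d and -0.33 to 0.0569 for Hist1h4m. The cause was not tested. Of the single-gene values under these settings, 25 turned and 436 kept their sign.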
